A study of Mus musculus with 6 samples.

Results

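Oviduct secretory genes and genes of motile cilia were followed through RNA sequencing of whole ovaries of 9 dpp (days post partum) mice. The 9 genes were taken by symbol from a table of 47205 genes, with earlier results of these data known, and all 9 were found. They are Pax8, Sox17 and Ovgp1, which mark secretory and duct epithelium, and Foxj1, Rsph1, Ccdc39, Tekt1, Cfap126 and Dnah5, which serve motile cilia. The tissue was compared between 3 libraries from mice with Srsf1, a splicing factor gene, knocked out in ovarian granulosa cells (cKO) and 3 libraries from wild-type mice (WT). The Cre driver, the strain and the number of animals behind a library are not stated in the labels, so p-values measure only the spread between these libraries, which may be technical.

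The oviduct lies beside the ovary and is lined by secretory cells and by multiciliated cells. Multiciliated cells carry many motile cilia, each built on an axoneme of microtubule doublets with dynein motor arms, radial spokes and a central pair. Secretory cells of the oviduct descend, like the uterine epithelium, from the Müllerian duct. Granulosa cells, oocytes and stroma have at most a single primary cilium, which has no dynein arms. Several of the genes are not particular to the oviduct. PAX8 also marks the rete ovarii, a duct remnant at the hilum of the mouse ovary, and SOX17 is a factor of endothelium too. In whole tissue, fewer cells of a type and less RNA per cell cannot be told apart.

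Whole reads could be recovered from the authors' FPKM values, which count fragments relative to the length of the gene and the size of the library. The libraries held 18.6 to 18.7 M reads in cKO and 16.8 to 18.5 M in WT. Srsf1, the targeted gene, stood at 20.3, 26.9 and 21.4 FPKM in the cKO libraries (replicates 1, 2 and 3), against 39.9, 49.6 and 46.3 in the WT ones, with no overlap (log2 fold change -0.96, SE 0.134, adjusted p of limma = 0.32). Markers of the labelled tissue were abundant, with the oocyte coat gene Zp3 at 634 to 697 FPKM in cKO and 561 to 678 in WT and the granulosa gene Inha at 126 to 180 FPKM in cKO and 131 to 181 in WT. One library stood apart in the genes described here. Of the 14714 genes that averaged 1 FPKM or more, 24.3% (3580) were highest in cKO replicate 2, the largest share of any library. Still more, 4034, were lowest in it, so it was extreme in both directions. Most results that rest on it are given with and without it. WT replicate 3 also stood apart in a few secretory genes.

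Regulatory sequence of the cilium genes was examined first. Regulatory factor X (RFX) proteins switch on many cilium genes through a motif called the X-box, whose core was searched here as GTTGCNA on both strands. RefSeq promoter sequences of GRCm38.p6 were at hand for 6 of the 9 genes (Pax8, Ovgp1, Ccdc39, Tekt1, Cfap126 and Dnah5), and the 250 bases before each annotated start were read. The motif was chosen after these sequences had been seen. It occurred before a start of Tekt1 and Dnah5, and in 8.77% of all 32851 promoter windows. Tekt1 and Dnah5 are shown because they are the only ones of the 6 with a match, which is given in capitals (the Dnah5 stretch GTTGCAAC holds overlapping matches on both strands). A match describes letters and is not a shown binding site. The stretches are chr11:72361883-72361982 on the minus strand and chr15:28203611-28203710 on the plus strand, 5′ to 3′.
Tekt1: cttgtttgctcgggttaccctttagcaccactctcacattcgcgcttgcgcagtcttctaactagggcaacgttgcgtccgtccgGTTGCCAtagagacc
Dnah5: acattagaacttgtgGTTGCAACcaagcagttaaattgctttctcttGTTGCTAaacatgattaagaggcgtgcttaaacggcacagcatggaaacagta

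Of the 9 genes, 8 were abundant enough to test, 0 of them passed an adjusted p of 0.05 between cKO and WT, and in all 9 the libraries of the groups overlapped. Genes were tested with limma on log2(FPKM + 1), which understates changes of low genes, with Benjamini-Hochberg adjustment across the whole set tested. The background was sparse too, since 0.0204% of the 14714 genes passed the same threshold in either direction, 0.0068% with cKO higher and 0.0136% with cKO lower. Libraries did not overlap with cKO higher in 6.37% and with cKO lower in 5.89% of those genes, and 50% of them had a log2 fold change above 0. Pax8, Sox17, Rsph1, Ccdc39 and Cfap126 reached the mean of 1 FPKM and 4 of these 5 lay higher in cKO, with a median log2 fold change of 0.21, against -0.00014 over all genes tested. Without cKO replicate 2, 2 of the 5 lay higher and the median was -0.0026. Foxj1, Ovgp1 and Tekt1 were read from a second fit of 22699 genes averaging 0.1 FPKM or more, where 0.0132% passed and where libraries did not overlap with cKO higher in 6% and with cKO lower in 5.85% of genes. limma-voom on recovered reads called 0 of 18538 genes, with 6.35% at an unadjusted p under 0.05. Dnah5 lay below the lower minimum as well.

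The levels were low to middling for the tissue. Sox17 averaged 4.49 and Pax8 4.27 FPKM over the 6 libraries, and 42.7% and 43.4% of the 22186 protein-coding genes in the table were more abundant. Rsph1 followed at 2.32, Cfap126 at 1.83, Ccdc39 at 1.69, Foxj1 at 0.931, Ovgp1 at 0.819, Tekt1 at 0.719 and Dnah5 at 0.0399 FPKM. Neighbours in this order overlapped in range over the libraries, except that every library had Tekt1 far above Dnah5.

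**Figure D1:**
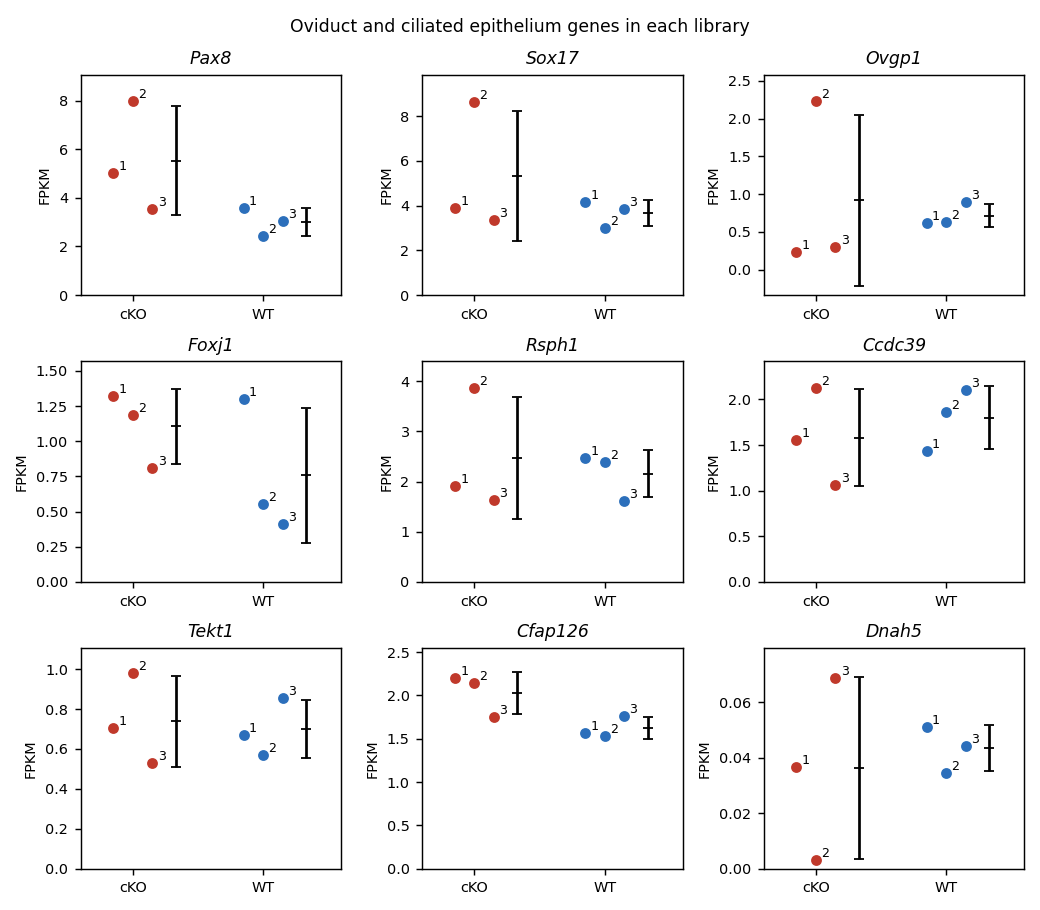
FPKM of each gene in the 3 cKO (red) and 3 WT (blue) libraries, numbered by replicate, with mean and SD in black. cKO replicate 2 is the highest library for 6 of the 9 genes, by a wide gap for Pax8, Sox17, Ovgp1 and Rsph1 and a narrow one for Ccdc39 and Tekt1, and the lowest for Dnah5.

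Among the secretory and duct genes, Pax8 came nearest to a difference between the groups. Pax8, a paired-box transcription factor of Müllerian and kidney epithelium (GRCm39 chromosome 2, 24310563 to 24365611, minus strand), stood at 5.04, 7.98 and 3.56 FPKM in the cKO libraries (replicates 1, 2 and 3), against 3.57, 2.42 and 3.05 in the WT ones. All cKO libraries thus lay above WT replicates 2 and 3, and cKO replicate 3 lay just under WT replicate 1. The log2 fold change was 0.66 (SE 0.251, adjusted p of limma = 0.771), and Pax8 was among the 6.34% of genes with an unadjusted p under 0.05. An exact two-sided permutation test on Pax8 gave p = 0.2, where 3 against 3 libraries can reach 0.1 at best. Without cKO replicate 2 the log2 fold change was 0.40 (adjusted p of limma = 0.735).

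Sox17, an SRY-box transcription factor of endoderm, arterial endothelium and Müllerian epithelium (chromosome 1, 4561151 to 4567624, minus strand), stood at 3.91, 8.65 and 3.38 FPKM in the cKO libraries, against 4.15, 3.0 and 3.86 in the WT ones. A single library made its mean higher in cKO. The log2 fold change was 0.35 (SE 0.296, adjusted p of limma = 0.853) with cKO replicate 2 and -0.0026 without it (exact permutation p = 0.5 with all libraries).

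Ovgp1 encodes oviductin, the glycoprotein that oviduct secretory cells release around the egg (chromosome 3, 105881118 to 105894739, plus strand). It stood at 0.230, 2.23 and 0.302 FPKM in cKO, on 11, 108 and 14 reads, and at 0.621, 0.632 and 0.90 FPKM in WT, on 27, 29 and 42 reads. The cKO libraries thus held both the highest value and the lowest ones. The log2 fold change was 0.01 (SE 0.364, adjusted p of limma = 0.998) with all libraries and -0.44 without cKO replicate 2 (adjusted p of limma = 0.514).

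These 3 genes together took 36.3, 77.9 and 28.6 RPM (recovered reads scaled to the total of the library) in cKO replicates 1, 2 and 3 and 35.2, 24.8 and 32.0 in WT. The exact 95% binomial interval of cKO replicate 2 ran from 73.9 to 82.0 and that of the next library, cKO replicate 1, from 33.6 to 39.2. Such intervals cover counting error only.

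The motile cilium genes differed less between cKO replicate 2 and the other libraries, apart from Rsph1 and the scarcely detected Dnah5. Foxj1, the forkhead transcription factor that commits cells to motile cilia (chromosome 11, 116221530 to 116226331, minus strand), stood at 1.32, 1.19 and 0.809 FPKM in the cKO libraries, against 1.3, 0.557 and 0.411 in the WT ones. WT replicate 1 lay among the cKO libraries, while the other WT libraries lay below all of them. The log2 fold change was 0.29 (SE 0.211, adjusted p of limma = 0.841).

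Rsph1, a protein of the radial spoke head (chromosome 17, 31473993 to 31496270, minus strand), stood at 1.92, 3.87 and 1.63 FPKM in the cKO libraries, against 2.47, 2.39 and 1.62 in the WT ones. It was high in cKO replicate 2 alone, and its log2 fold change of 0.09 (SE 0.255, adjusted p of limma = 0.953) became -0.18 without that library. Its ends overlap Slc37a1 and Ubash3a on the other strand, each under 1 FPKM, and the labels do not state strandedness.

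Ccdc39 encodes a ruler protein that sets the repeat of dynein arms and spokes along the axoneme (chromosome 3, 33864906 to 33898473, minus strand). It stood at 1.56, 2.12 and 1.06 FPKM in the cKO libraries, against 1.43, 1.87 and 2.11 in the WT ones, with full overlap (log2 fold change -0.13, SE 0.194, adjusted p of limma = 0.902). Its 3′ end overlaps Ttc14 on the plus strand, at a mean of 9.48 FPKM, so that without strand information the reads of Ccdc39 may include reads of Ttc14.

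Tekt1, a tektin filament inside the doublets (chromosome 11, 72235543 to 72253268, minus strand), stood at 0.707, 0.981 and 0.530 FPKM in the cKO libraries, against 0.671, 0.568 and 0.855 in the WT ones. These values rested on 16 to 31 reads in cKO and 17 to 26 reads in WT (log2 fold change 0.03, SE 0.138, adjusted p of limma = 0.978). Cfap126, also called Flattop, which helps to place basal bodies (chromosome 1, 170941326 to 170954525, plus strand), stood at 2.20, 2.14 and 1.75 FPKM in the cKO libraries, against 1.56, 1.53 and 1.76 in the WT ones. Only WT replicate 3 reached the lowest cKO library (log2 fold change 0.21, SE 0.131, adjusted p of limma = 0.821; exact permutation p = 0.2).

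Dnah5, the heavy chain of the outer dynein arm, is the motor itself and is long, at 15840 bases of gene model (chromosome 15, 28155000 to 28472191, plus strand). It had 11, 1 and 20 reads in cKO, or 0.0367, 0.00329 and 0.0688 FPKM, and 14, 10 and 13 reads in WT, or 0.0513, 0.0347 and 0.0444 FPKM. cKO replicate 2, the library with the most Pax8, Sox17 and Ovgp1, thus held the fewest reads of Dnah5. An exact two-sided permutation test gave p = 0.8.

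The 6 cilium genes together took 20.9, 26.0 and 15.1 RPM in cKO and 19.7, 18.9 and 20.1 in WT. The cKO libraries lay on both sides of the WT libraries, with exact 95% binomial intervals of 23.8 to 28.4 for cKO replicate 2 and 13.4 to 17.0 for cKO replicate 3. The ratio of the cKO to the WT mean was 1.06, and 0.92 without cKO replicate 2.

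**Figure D2:**
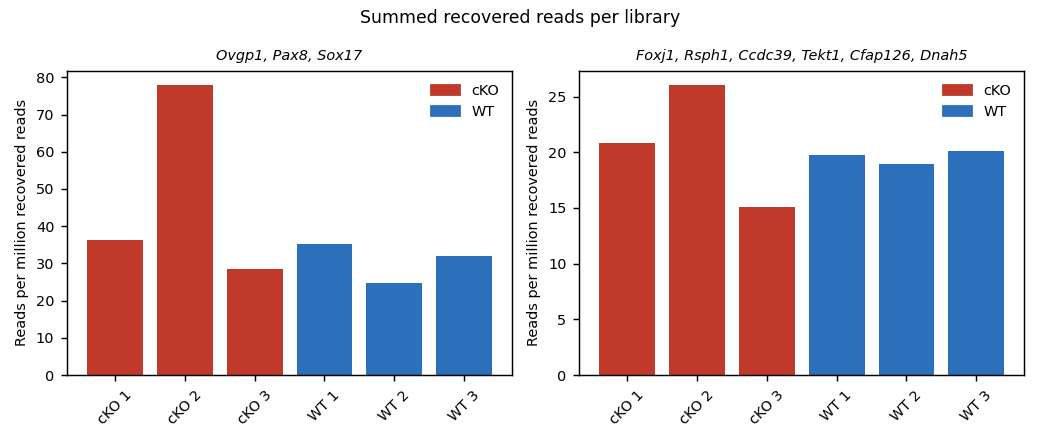
Recovered reads in RPM of the secretory and duct genes (left) and of the motile cilium genes (right), summed per library, with cKO in red and WT in blue. cKO replicate 2 reaches 77.9 on the left, against 24.8 to 36.3 in the other libraries, and 26.0 on the right, against 15.1 to 20.9.

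Further genes of the motile cilium, 98 in 6 lists, were mostly low. Of the 98, 61 lay below 1 FPKM and 20 below 0.1 FPKM. Of the 37 tested, 14 lay higher and 23 lower in cKO, 0 passed the threshold, and the median log2 fold change was -0.04, or 0.0037 without cKO replicate 2. Libraries did not overlap in 2 genes with cKO higher and in 1 with cKO lower, against 6.37% and 5.89% of all genes tested. Of the 37, 8 were highest in cKO replicate 2, as were 24.3% of all genes tested. Of all 98, 4 stood at least 1.5 times higher in cKO replicate 2 than in every other library. They were Rsph3a, the scarcely detected Spag17, Ccdc65 and Myb, and the last 3 were chosen after their values were seen. Only Rsph3a of these averaged 1 FPKM or more. Among all genes tested, 1.35% passed that cut. Ccdc65, a protein of the nexin-dynein complex, stood at 0.605, 2.46 and 0.570 FPKM in the cKO libraries, against 0.549, 0.329 and 0.512 in the WT ones. Myb, a transcription factor that acts early in multiciliation, stood at 0.518, 1.67 and 0.0866 FPKM in the cKO libraries, against 0.123, 0.248 and 0.258 in the WT ones. Ccdc65 and Myb were named for passing the cut of 1.5 times, so their height in cKO replicate 2 follows from the choice. Mcidas and Gmnc, whose products start centriole amplification and which were chosen after their values were seen, had 4 and 3 reads over all 6 libraries. Sntn, a marker of multiciliated cells, and the dynein assembly gene Dnaaf6 had 0 reads in each of the 6, which allows up to 3 reads a library, or at most 0.140 and 0.120 FPKM.

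Among the multiciliation regulators, 5 of 5 tested genes lay lower in cKO, with a median log2 fold change of -0.10. The other 7 of the 12 genes on the list lay below 1 FPKM and went in both directions. Their log2 fold changes, from fits with a lower minimum, had Trp73 (-0.08) and Myb (0.44) as extremes. Ccno, a cyclin of multiciliated cells that mouse oocytes also express, was abundant at 135, 99.6 and 111 FPKM in the cKO libraries, against 131, 127 and 124 in the WT ones (adjusted p of limma = 0.852). Without cKO replicate 2, 3 of the 5 lay lower. Rfx2 and Rfx3, chosen after their values were seen because their products bind the X-box, stood at 9.50, 5.04 and 9.17 FPKM in the cKO libraries, against 7.90, 9.59 and 7.41 in the WT ones, and at 1.34, 1.08 and 1.50 in cKO and 1.35, 1.53 and 1.23 in WT. Rfx2 was thus lowest in cKO replicate 2.

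Axonemal dynein arm genes lay lower in cKO in 6 of 6 tested members (median log2 fold change -0.16, 0 past the threshold), and without cKO replicate 2 in 6 of 7. The other 13 of the 19 genes on the list lay below 1 FPKM and went in both directions. Their log2 fold changes, from fits with a lower minimum, had Dnah11 (-0.30) and Dnaic2 (0.21) as extremes. Dnah10, an inner arm heavy chain, stood at 1.72, 0.992 and 1.43 FPKM in the cKO libraries, against 1.81, 2.42 and 1.36 in the WT ones, and Ccdc114, an outer arm docking protein, at 1.67, 2.52 and 1.79 FPKM in the cKO libraries, against 2.28, 2.79 and 2.25 in the WT ones. Both overlapped between the groups. Dynein assembly factors lay higher in 4 and lower in 3 of 7 tested members, and genes of the radial spokes, central pair and nexin-dynein complex higher in 4 and lower in 2 of 6, or higher in 6 of 6 without cKO replicate 2. Dnaaf5, an assembly factor, stood at 11.3, 9.55 and 9.77 FPKM in the cKO libraries, against 11.5, 11.8 and 11.0 in the WT ones. The spoke gene Rsph3a was highest in cKO replicate 2, at 8.50, 18.3 and 11.6 FPKM in the cKO libraries, against 9.21, 7.91 and 10.6 in the WT ones (adjusted p of limma = 0.827).

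Among tektins and microtubule inner proteins, Enkur was the 1 gene of the 37 with an unadjusted p of limma under 0.05, which 6.34% of all genes tested had. Enkur, a protein inside the doublet, stood at 3.13, 2.65 and 1.95 FPKM in the cKO libraries, against 1.6, 1.51 and 1.13 in the WT ones, without overlap (log2 fold change 0.56, SE 0.170, adjusted p of limma = 0.743). Cfap45, another inner protein, stood at 1.01, 1.63 and 1.11 FPKM in the cKO libraries, against 1.85, 1.70 and 1.92 in the WT ones, without overlap in the opposite direction (log2 fold change -0.33, SE 0.154, adjusted p of limma = 0.773). The list lay higher in 3 and lower in 6 of 9 tested members. Of 4 other tested genes of multiciliated cells, 3 lay higher, among them Cfap43, an axonemal protein, at 1.37, 1.04 and 1.27 FPKM in the cKO libraries, against 0.966, 0.791 and 1.03 in the WT ones, without overlap. Primary cilium and transport genes, which most cells of the ovary use, were tested in all 19 members, with 6 higher and 13 lower (median log2 fold change -0.06, 0 past the threshold). Ift80, a subunit of the transport train, stood at 8.92, 8.85 and 10.1 FPKM in the cKO libraries, against 11.3, 11.6 and 11.1 in the WT ones (log2 fold change -0.26, SE 0.0887, adjusted p of limma = 0.761).

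**Figure D3:**
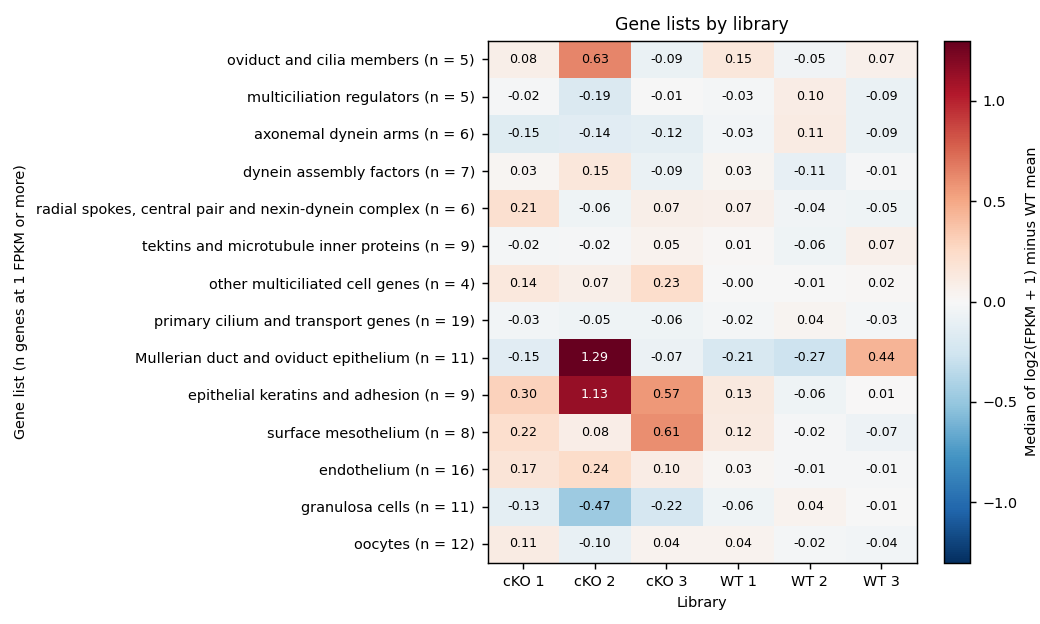
Median over the tested genes of each list of log2(FPKM + 1) minus the WT mean, by library (cKO left, WT right); n is the number of genes averaging 1 FPKM or more. The Müllerian and oviduct list reaches 1.29 and the epithelial list 1.13 in cKO replicate 2, while the lists of motile cilium genes lie between -0.19 and 0.23 in every library.

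Most of the tested Müllerian duct and oviduct epithelial genes were highest in cKO replicate 2, as Pax8, Sox17 and Ovgp1 were. Of 18 genes on that list 11 were tested, 8 higher and 3 lower in cKO with 0 past the threshold (median log2 fold change 0.24). Of the 11, 8 were highest in cKO replicate 2, as were 24.3% of all genes tested, and 2 were lowest in it. These 2 were Cldn4, named after its values were seen, and Esr1. Esr1 stood at 12.9, 10.1 and 22.6 FPKM in the cKO libraries, against 15.2, 14.6 and 16.2 in the WT ones. In 4 of the 8, cKO replicate 2 stood at least 1.5 times above every other library, as it did in 1.35% of all genes tested and in Pax8, Sox17 and Rsph1. Cldn7, counted among both the 8 and the 4, reached the mean of 1 FPKM only through cKO replicate 2. Its place in both counts was thus set by the minimum. Without cKO replicate 2, 4 of 10 tested genes lay higher, with a median of -0.08. The summed level of the 18 genes was 71.6, 168 and 84.0 FPKM in the cKO libraries, against 67.5, 63.6 and 108 in the WT ones, and Lhx1 was the gene on the list with the fewest reads (0 in each WT library).

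The gene of this list nearest to a group difference was Cldn3, a tight junction protein, at 6.15, 8.28 and 5.70 FPKM in the cKO libraries, against 2.85, 2.13 and 3.60 in the WT ones, without overlap (log2 fold change 1.0, SE 0.186, adjusted p of limma = 0.566). Cd24a, a surface glycoprotein of many epithelia, stood at 10.1, 27.8 and 10.7 FPKM in the cKO libraries, against 7.78, 7.55 and 13.6 in the WT ones. Cldn7, another tight junction protein, stood at 0.692, 4.66 and 0.600 FPKM in the cKO libraries, against 0.280, 0.0757 and 1.04 in the WT ones. In both genes cKO replicate 2 was the highest library and WT replicate 3 the next.

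Other genes of the list were chosen after their values were seen. Wfdc2, a secreted protease inhibitor of Müllerian epithelium, stood at 0.742, 29.8 and 0.764 FPKM in the cKO libraries, against 0.326, 0.154 and 6.83 in the WT ones. Lcn2, an iron-sequestering secreted protein, stood at 4.96, 26.8 and 1.47 FPKM in the cKO libraries, against 1.09, 0.580 and 22.8 in the WT ones, and Ltf, which encodes lactoferrin, at 0.347, 7.46 and 0.0795 FPKM in the cKO libraries, against 0.0212, 0.0802 and 5.72 in the WT ones. In these 3 secretory genes WT replicate 3 was the second library after cKO replicate 2. Pax2, a duct transcription factor, was at 1.18 FPKM in cKO replicate 2 and at 0.0366 to 0.181 FPKM elsewhere. Wnt7a, a signal of Müllerian epithelium, was at 2.45 FPKM in cKO replicate 2 and at 0.236 to 0.436 FPKM elsewhere. WT replicate 3 lay inside the range of the other libraries for Pax2 (0.144 FPKM). For Wnt7a it was again the second library, at 0.436 FPKM, far below cKO replicate 2.

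**Figure D4:**
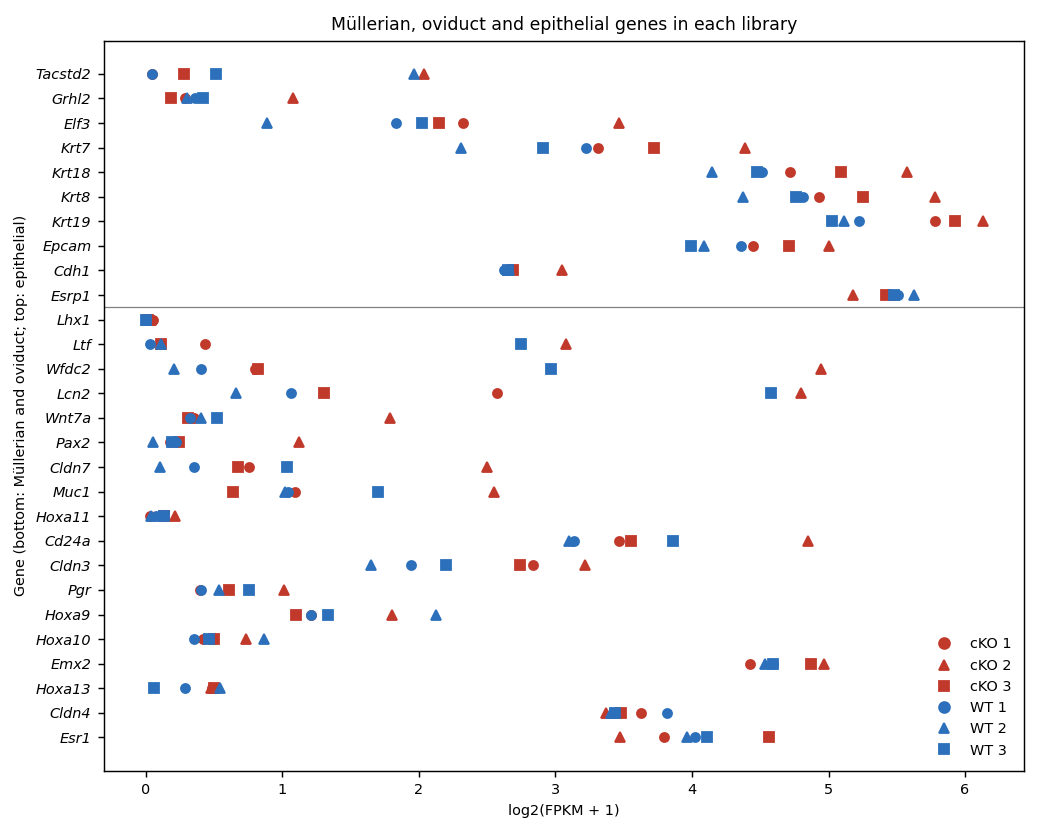
log2(FPKM + 1) of each Müllerian and oviduct gene (below the line) and epithelial gene (above it) in the cKO (red) and WT (blue) libraries, with a symbol for each replicate. cKO replicate 2 (red triangle) is rightmost for Wfdc2, Wnt7a, Pax2, Cldn7, Muc1 and Cd24a, with WT replicate 3 (blue square) beside it for Ltf and Lcn2. The red triangle is leftmost for Esr1 and Cldn4.

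Epithelial keratin and adhesion genes differed in that, for most of them, the other cKO libraries also lay above WT. Of 9 tested, 7 lay higher and 0 passed the threshold (median log2 fold change 0.67). Libraries did not overlap in 6 with cKO higher and in 1 with cKO lower, against 6.37% and 5.89% of all genes tested. Without cKO replicate 2, 7 of 8 lay higher, with a median of 0.48. Krt19, a simple-epithelium keratin, stood at 53.9, 69.0 and 59.8 FPKM in the cKO libraries, against 36.4, 33.6 and 31.6 in the WT ones (log2 fold change 0.82, SE 0.113, adjusted p of limma = 0.32). Epcam, an epithelial adhesion molecule, stood at 20.8, 31.1 and 25.1 FPKM in the cKO libraries, against 19.6, 16.0 and 14.9 in the WT ones (adjusted p of limma = 0.740). Esrp1 lay the other way, at 43.57, 35.3 and 41.8 FPKM in the cKO libraries, against 44.6, 48.4 and 43.62 in the WT ones. Grhl2, named after its values were seen, stood at 0.221, 1.11 and 0.137 FPKM in cKO, against 0.282, 0.230 and 0.335 in WT.

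Other cell types of the whole ovary were followed beside these genes. Surface mesothelium genes lay higher in 8 of 8 members (median log2 fold change 0.26, 0 past the threshold), but 6 of the 8 were highest in cKO replicate 3 and 1 in replicate 2. Without cKO replicate 2, 8 of 8 lay higher, with a median of 0.38. Upk3b, a uroplakin of mesothelium, stood at 54.9, 48.7 and 70.9 FPKM in the cKO libraries, against 47.9, 39.0 and 48.2 in the WT ones. The summed level of the list was 148, 171 and 219 FPKM in the cKO libraries, against 144, 110 and 117 in the WT ones. Endothelial genes lay higher in 16 of 16 members (median log2 fold change 0.15, 0 past the threshold), with sums of 326, 342 and 310 FPKM in the cKO libraries, against 289, 282 and 290 in the WT ones. Without cKO replicate 2, 14 of 16 lay higher, with a median of 0.16. In cKO replicate 2 the median deviation of endothelial genes from WT was 0.24, where Sox17 stood at 8.65 FPKM against a WT mean of 3.67. Sox18, a close relative of Sox17 in endothelium, stood at 41.2, 46.0 and 40.2 FPKM in the cKO libraries, against 39.8, 37.9 and 40.9 in the WT ones. Granulosa genes lay lower in 8 of 11 tested members (median log2 fold change -0.36), with a median deviation of -0.47 in cKO replicate 2. Of the 11, 0 passed the threshold, while 5 lay lower and 1 higher at an unadjusted p of limma under 0.05 (6.34% of all genes). Libraries did not overlap with cKO lower in 4 and with cKO higher in 0, against 5.89% and 6.37% of all genes. Without cKO replicate 2, 7 of 11 lay lower, with a median of -0.41. Oocyte genes lay higher in 5 and lower in 7 of 12 (median log2 fold change -0.02), but higher in 8 and lower in 4 without that library (median 0.04). The part of any of these cell types in the values of the 9 genes was not tested.

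Over the 6 libraries, Pax8 and Sox17 varied together (Pearson r = 0.90), and r was 0.63 without cKO replicate 2. Sox17 and Rsph1 had r = 0.81 with that library and -0.06 without it. For Pax8 and Cfap126, r was 0.84 with cKO replicate 2 and 0.85 without it. These are descriptions over 6 libraries of similar depth. The protein-coding genes closest in pattern to Sox17 were Ppp2r2c, a phosphatase subunit gene, and Ehf, an epithelial ETS factor (r = 0.998 and 0.996, or 0.977 and 0.963 without cKO replicate 2). Of 12724 genes 340 reached r = 0.9 with Sox17, and 293 did so over the 5 libraries without cKO replicate 2. Ehf stood at 1.07, 3.62 and 0.839 FPKM in the cKO libraries, against 1.27, 0.708 and 1.23 in the WT ones. The closest to Pax8 were Ppif, a mitochondrial cyclophilin gene, and Perp, a desmosome-associated p53 target (r = 0.993 each, or 0.976 and 0.990 without cKO replicate 2). Of the 12724 genes 306 reached r = 0.9 with Pax8, and 376 without that library. Perp stood at 8.93, 16.2 and 6.74 FPKM in the cKO libraries, against 7.06, 4.8 and 6.21 in the WT ones. For Rsph1 the closest were Prr14 and Hic1, for Ccdc39 Nrp and Mon1a, and for Cfap126 Adh5 and Sec61a1, with r of 0.976 to 0.999, or 0.970 to 0.999 without cKO replicate 2.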

How the data were processed

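The authors deposited FPKM values per gene in a single table for 6 libraries. HISAT2 2.0.5, mm10 and GRCm39 are listed, per the submitters' processing notes. Chromosome accessions in the table are those of GRCm39. No read counter, annotation release or strandedness was found, and each is taken as not given in the sources used here. Multiplied by gene length, the FPKM of a library fell on steps of equal size, and 100% of values lay within 0.01 of a whole step, which gave the recovered reads. The authors' scaling between libraries was kept. limma 3.58.1 in R 4.3.3 (lmFit, eBayes with a trend, two-sided) compared cKO with WT on log2(FPKM + 1), with a minimum mean of 1 FPKM, or 0.1 FPKM for lower genes, and both fits and limma-voom were tested on simulated data. The 9 genes and the lists were chosen with earlier results of these data known. Of the listed symbols not in the table, 9 were matched through its protein names (Ccdc114 for Odad1, for example), 1 repeated a listed gene that way, and 9 were not matched by name, some of them newer or older names of genes that were found (Pih1d3 for Dnaaf6, Cimap3 for Pifo and Cfap144 for Fam183b). Named list genes are up to 3 with the smallest p and up to 2 with the highest mean per list, unless said otherwise. The 2 genes closest to each tested gene were taken by Pearson r over all tested protein-coding genes. No set test was run.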

Additional observations from a re-analysis of the deposited data

How the results depend on the processing

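The count of the 9 genes past the threshold stayed at 0 in all 16 alternatives, as did that of all listed genes. Over all genes tested, 1 was called higher and 2 lower. The count higher was 0 with a pseudocount of 0.1 or 0.5, no filter, quantile normalization, the replicate block and limma-voom on recovered reads, and 3 with library weights. The count lower was 0 with no filter, the replicate block and limma-voom. With a single library left out they ran from 0 to 1 higher and from 0 to 1 lower. limma-voom found 1177 genes at an unadjusted p under 0.05. Deviations from the group means correlated at 0.18, -0.08 and -0.06 between libraries of the same number, and at -0.23 to 0.23 between those of unlike number. With 3 libraries per group this cannot settle whether the numbers pair libraries, and the labels do not say. The replicate block called 0 of the 9 genes. The ratio of summed cilium reads ran from 0.92 to 1.20 with a library left out and was 0.97 with the wider lists added. Pax8, Foxj1 and Cfap126 were higher in cKO in every alternative, with log2 fold changes of 0.40 to 0.89 for Pax8. Direction changed for 6 genes. Ovgp1 had -0.257 with a pseudocount of 0.1, -0.0511 with 0.5, -0.0027 with quantile normalization, -0.249 with library weights and -0.369 with limma-voom, and -0.0264, -0.0216 and -0.437 without WT replicate 1, without WT replicate 2 and without cKO replicate 2 (range over left-out libraries -0.437 to 0.259). Sox17 had -0.0026 without cKO replicate 2 (-0.0026 to 0.568). Rsph1 had -0.079 with library weights, -0.0385 without WT replicate 3 and -0.179 without cKO replicate 2 (-0.179 to 0.265). Ccdc39 had 0.0202 without cKO replicate 3 (-0.280 to 0.0202). Tekt1 had -0.0019 with quantile normalization, -0.0014 with library weights, -0.0256 without WT replicate 2 and -0.0679 without cKO replicate 2 (-0.0679 to 0.118). Dnah5, given with no test, had -0.0105 with all libraries and 0.0126 without cKO replicate 2, and -0.102 with a pseudocount of 0.1 and -0.929 with limma-voom. The other 5 genes passed the threshold in 0 of the alternatives, and the cause was not tested. At most 108 reads stood behind Ovgp1, Foxj1, Rsph1, Tekt1, Cfap126 and Dnah5 in any library, which limits what could be detected. List values and correlations without cKO replicate 2 were added after seeing the data.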
